A study of Mus musculus with 8 samples.

Results

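The 38 forkhead box (Fox) genes considered here were examined for H3K27me3, the Polycomb histone mark, in neural stem cells (NSCs) that differ at the chromatin protein gene Smchd1. The genes were taken from a fixed list of autosomal family members that does not include Foxp2, and a region belonged to them where it overlapped the gene body or 5 kb on either side. Of the 13585 regions measured around H3K27me3 peaks, 33 belonged to 31 of the 38 genes, and 29 of the genes had their transcription start inside a region. The overlap rule uses no measured value, but the list was drawn up with earlier results of these data known.

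The mark was mapped by ChIP-seq, in which DNA bound to the modified histone is pulled down with an antibody and sequenced. The cells were primary NSCs of female mice of strain C57BL/6J, derived from the cortex of E14.5 embryos and grown for less than 10 passages. All cells carried a GFP tag on endogenous Smchd1: the WT group was Smchd1GFP+/+ and the other group, called MommeD43 here, was Smchd1GFPMommeD43/MommeD43, homozygous for a missense variant of the SMCHD1 ATPase region. Each genotype had 3 ChIP libraries from separate cell lines and 1 whole cell extract (WCE) library. The comparison asked whether H3K27me3 was placed differently when SMCHD1 carried the variant. The deposited table holds 1 pooled column per genotype, so every level below is the authors' mean of log2 normalized read counts over the 3 ChIP libraries, and no difference has a replicate check, a p-value or an SD.

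Forkhead proteins are transcription factors that bind DNA through a winged-helix domain, and some of them, such as the FOXA proteins, can bind compacted chromatin. Many are switched on in a single lineage of endoderm, mesoderm, neural crest or sensory placode, and Polycomb complexes cover such developmental regulators with broad H3K27me3 domains in cells where they are silent. Others, such as the FOXK and FOXJ proteins, include widely used regulators of metabolism, cilia and growth.

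Polycomb domains in mammals often lie over CG-rich promoters, so the promoter sequence is shown for 4 genes that mark the range of the data. Foxc1 had the highest difference between genotypes and Foxo1 the lowest difference among regions holding a forkhead start, and Foxk2 had the most CG among matched genes without a region. Foxp4, with the second highest difference, was chosen after its value was seen. Each runs from 250 bases before to 50 after the start, 5′ to 3′, from RefSeq on GRCm38.p6, with CG dinucleotides in capitals.
Foxc1 (chr13:31806396-31806695, plus strand): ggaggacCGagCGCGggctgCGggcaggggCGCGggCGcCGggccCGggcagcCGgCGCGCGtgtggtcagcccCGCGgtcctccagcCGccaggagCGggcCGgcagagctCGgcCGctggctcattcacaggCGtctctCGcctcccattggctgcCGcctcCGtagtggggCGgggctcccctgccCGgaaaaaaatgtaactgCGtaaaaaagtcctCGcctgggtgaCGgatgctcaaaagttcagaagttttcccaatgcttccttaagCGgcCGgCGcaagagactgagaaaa
Foxp4 (chr17:47924583-47924882, minus strand): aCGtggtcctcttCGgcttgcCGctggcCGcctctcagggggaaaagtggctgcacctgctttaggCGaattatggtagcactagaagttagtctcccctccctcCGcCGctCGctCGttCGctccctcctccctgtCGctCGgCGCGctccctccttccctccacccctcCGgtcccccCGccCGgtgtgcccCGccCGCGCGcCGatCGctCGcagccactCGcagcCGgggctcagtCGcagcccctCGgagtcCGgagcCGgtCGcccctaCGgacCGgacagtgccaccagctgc
Foxo1 (chr3:52268087-52268386, plus strand): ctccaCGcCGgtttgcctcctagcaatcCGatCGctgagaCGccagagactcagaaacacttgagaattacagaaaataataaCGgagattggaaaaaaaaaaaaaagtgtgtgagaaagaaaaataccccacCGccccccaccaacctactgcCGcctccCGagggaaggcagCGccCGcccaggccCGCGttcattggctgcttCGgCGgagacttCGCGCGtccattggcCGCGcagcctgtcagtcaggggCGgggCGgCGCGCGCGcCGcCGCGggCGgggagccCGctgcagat
Foxk2 (chr11:121259737-121260036, plus strand): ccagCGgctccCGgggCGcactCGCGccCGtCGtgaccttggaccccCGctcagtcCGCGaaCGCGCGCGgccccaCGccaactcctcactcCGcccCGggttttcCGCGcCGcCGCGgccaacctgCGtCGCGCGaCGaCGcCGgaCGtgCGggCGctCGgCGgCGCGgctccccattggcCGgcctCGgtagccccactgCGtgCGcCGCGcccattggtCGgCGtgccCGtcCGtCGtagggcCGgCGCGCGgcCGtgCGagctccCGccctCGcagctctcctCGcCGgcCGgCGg
The Foxc1 window holds 32 CG dinucleotides and 67.3% GC, the Foxp4 window 33 and 70.3%, the Foxo1 window 31 and 61.3%, and the Foxk2 window 59 and 79.3%. The Foxk2 window, the most CG-rich of the 4, lay outside every region.

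RefSeq promoters were matched for 25 of the 38 genes. No entry was matched for Foxb1, Foxc2, Foxe1, Foxf1, Foxh1, Foxj1, Foxk1, Foxl1, Foxm1, Foxn2, Foxo6, Foxq1 and Foxs1. Of the matched genes, 21 (84%) had 10 or more CG in the window, against 59.9% of all 15687 autosomal protein-coding promoters of that length. The median was 22 CG in the 20 matched genes whose start lay in a region and 37 in the 5 whose start did not, which were Foxj2, Foxj3, Foxk2, Foxn3 and Foxo3. Among promoters of other genes the order was the other way round, with a median of 17 CG in a region and 13 outside. A region covered 17 of the 21 forkhead promoters with 10 or more CG and 3 of the 4 with fewer. For other genes the shares were 33.7% and 20.04%.

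H3K27me3 regions were common over this gene family. A region within 5 kb was found for 31 of the 38 genes, against 42.5% of the 20769 other autosomal protein-coding genes, and the start lay in a region for 29 of the 38, against 28.9%. The regions were also broad and densely marked. Their median length was 36200 bp, against 10400 bp for the 11674 other autosomal regions, and 15 of the 33 (45.5%) reached 50 kb, against 5.94% of the others. Of the 33 regions, 26 held a forkhead start, and the other autosomal regions that held a protein-coding start had a median length of 14450 bp, with 12.3% at 50 kb or more. Per kilobase, the median level was 89.7 normalized counts in WT and 134.6 in MommeD43, against 36.0 and 37.0 for the other autosomal regions. Peaks were called in these same libraries, so these values describe where the mark lies in NSCs and say nothing of the variant.

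The levels per kilobase ordered the genes by how densely they were covered. Foxl2, which specifies ovarian granulosa cells, was densest, at 373 normalized counts per kb in WT and 484 in MommeD43. In WT, 11 of the 33 regions exceeded 200 normalized counts per kb. They held Foxl2, the neural crest regulator Foxd3, the endoderm and floor plate factor Foxa2, the renal stroma factor Foxd1, Foxa1, Foxd2 together with the lens gene Foxe3, Foxd4, the diencephalic factor Foxb1, Foxb2, Foxf2 and the thyroid factor Foxe1. The sparsest, at 12.7 in WT and 19.2 in MommeD43, lay in an intron of Foxp1.

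**Figure D1:**
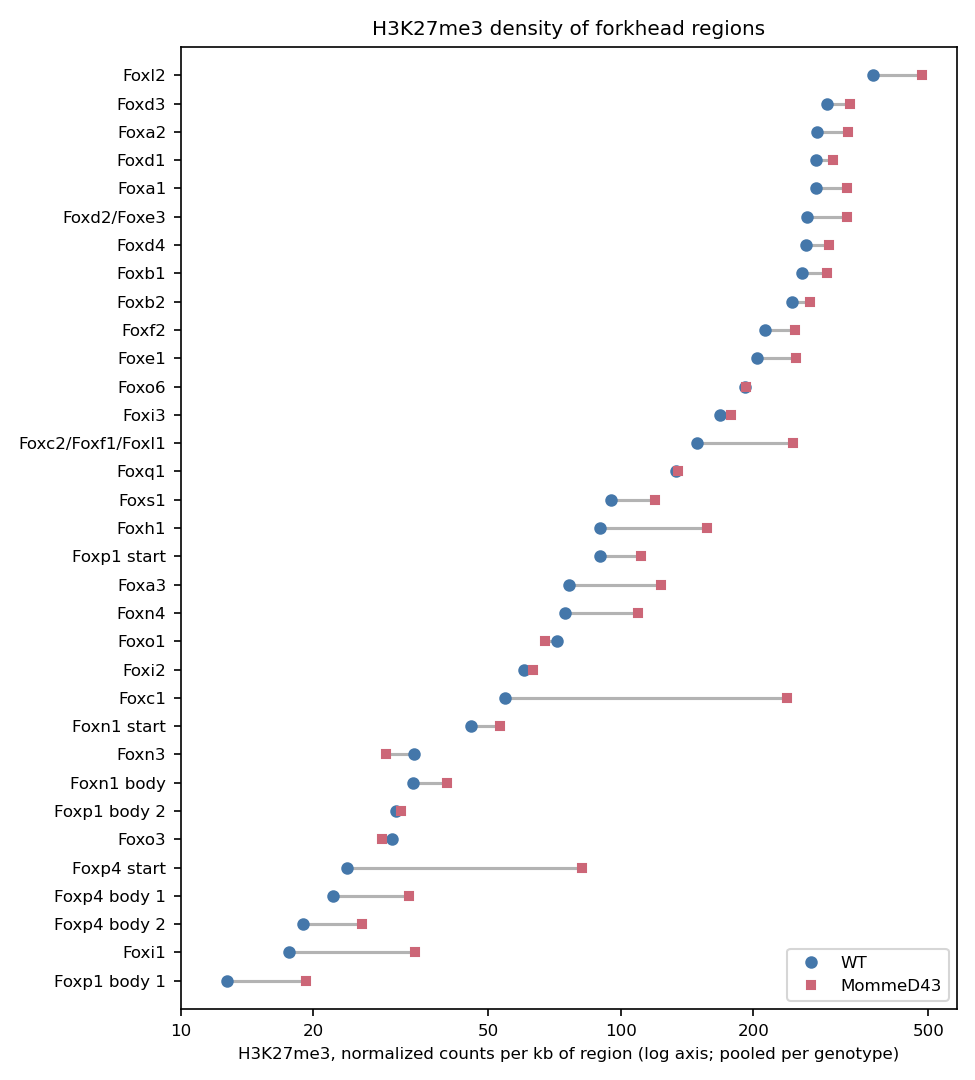
H3K27me3 level of the 33 forkhead regions in normalized counts per kb of region (log axis), circles for WT and squares for MommeD43, each point the authors' pooled mean over 3 libraries and so without error bars. Foxc1 runs from 54.7 to 239 and the Foxp4 start region from 23.8 to 81.8.

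As deposited, 30 of the 33 forkhead regions were higher in MommeD43, but 16 were when both columns were scaled to the same total over all regions, and 15 once a trend with abundance was removed. The median difference, MommeD43 minus WT, was 0.23 on the log2 scale with quartiles of 0.13 and 0.55. It was 0.07 over the other autosomal regions, of which 57.6% were higher in MommeD43 as deposited, 32.9% with scaling to the total and 50.02% with the abundance trend removed. Scaling to the total lowers every difference by 0.24 and leaves the order of the regions as it is, so a difference between 0 and 0.24 changes sign with the scaling. With scaling to the autosomal median 26 forkhead regions were higher, against 49.9% of the other autosomal regions. With a trend with GC content removed the count was also 26, against 49.8%. The direction of the family as a whole thus depended on which scaling or trend removal was used. In pooled cells, fewer cells carrying the mark and less mark per cell cannot be told apart.

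The difference between genotypes varied with GC content in forkhead and other regions alike, and with length in the other regions. Across all 11674 other autosomal regions the difference rose with GC content, with a Spearman rho of 0.58 over regions of the same pooled libraries, and it was also 0.58 over the 33 forkhead regions. Other autosomal regions of 50 kb or more with a protein-coding start had a median difference of 0.28, and the 15 forkhead regions of that size had one of 0.23. Below 50 kb the medians were 0.15 for other regions with such a start and 0.22 for regions with a forkhead start. Each forkhead region was therefore set beside the other autosomal regions within 2 percentage points of GC content and 0.5 of its mean log2 value. Both limits were doubled for Foxo6, for the Foxc2, Foxf1 and Foxl1 region and for the second Foxp4 body region. The sets held between 27 and 1191 regions each and are called similar regions below. The median excess over the median of the similar regions was 0.02, with quartiles of −0.05 and 0.21, and 20 regions lay above it and 13 below. The difference of 21 regions lay between the quartiles of their similar regions, 9 lay above the upper quartile and 3 below the lower. The excess does not depend on the scaling, because a shift moves both sides alike.

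**Figure D2:**
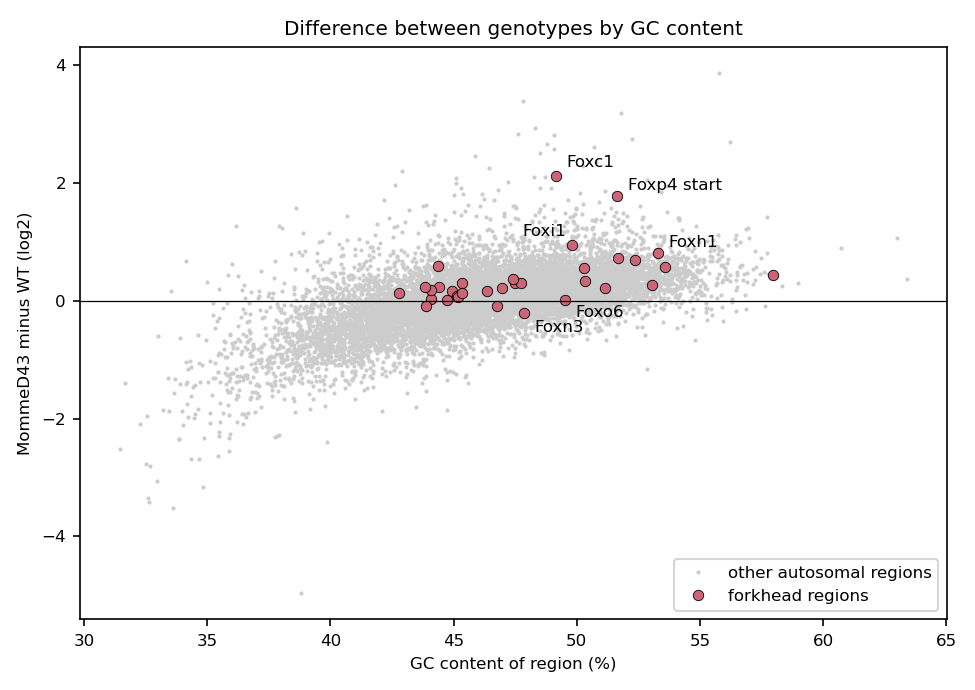
Difference between genotypes (MommeD43 minus WT, log2) against the GC content of the region in percent, grey points for the 11674 other autosomal regions and larger points for the 33 forkhead regions. The Spearman rho was 0.58 in both sets, and Foxc1 at 2.13 and the Foxp4 start at 1.78 lie above all other forkhead regions.

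Counting error was small for most regions. The geometric mean count recovered for a forkhead region ran from 21.8 to 17318 reads per library in WT and from 40.8 to 25337 in MommeD43. The smallest possible counting error of a difference ran from 0.01 to 0.22, with a median of 0.03, and it leaves out the variation between cell lines. The 95% counting interval lay above 0 for 26 forkhead regions and below 0 for 1, that of Foxo1. Of the other autosomal regions, 37.8% lay above 0 and 25.2% below. These had fewer reads and a median counting error of 0.11, so the same difference clears 0 less often there. Among the 693 of them of 50 kb or more, 502 intervals lay above 0 and 141 below. For the 15 forkhead regions of that size the counts were 14 and 0. With scaling to the total, 13 forkhead intervals lay above 0 and 13 below, against 18.0% and 46.9% of all other autosomal regions.

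A difference of at least 1, a doubling, was reached by 2 of the 33 regions in the direction of MommeD43, those at Foxc1 and at the Foxp4 start, under every scaling and trend removal tried. Among the other autosomal regions 2.27% were higher by at least 1. None of the forkhead regions was lower by at least 1, against 2.94% of the other autosomal regions. The share of forkhead regions was 6.06%, from 2 regions, and the account below is of the regions themselves.

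Foxc1 encodes a factor of the meninges, the anterior eye and the paraxial and cranial mesoderm. Its region, chr13:31790751-31825900 on GRCm38, covers the whole gene and no other protein-coding start. It had a log2 normalized count of 10.91 in WT and 13.03 in MommeD43, which is 54.7 and 239 normalized counts per kb. The difference was 2.13 with a counting error of 0.04, a fold of 4.37. Its 218 similar regions had a median difference of 0.33, and 1 of them differed by as much.

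The neighbours of Foxc1 had far smaller differences. Foxf2, expressed in pericytes and in palate and gut mesenchyme, starts 180817 bp from Foxc1, and its region was at 213 normalized counts per kb in WT and 249 in MommeD43, a log2 difference of 0.22. Foxq1, known for its role in hair, starts a further 69682 bp away, and its region had log2 values of 12.41 and 12.42, a difference of 0.01, and also holds the start of A530084C06Rik. The short region between them was at log2 values of 7.28 and 6.90, a difference of −0.38 with a counting error of 0.17. The next region beyond Foxc1 differed by 0.13. In WT the Foxc1 region therefore stood well below Foxf2 in density, and in MommeD43 the 2 regions were nearly level.

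Foxp4, a FOXP factor of lung, gut and neural epithelium, showed the other large difference, in the region over its start and first part of the gene. That region, chr17:47896251-47929300, covers 49.4% of the gene. It was at a log2 value of 9.62 in WT and 11.40 in MommeD43, or 23.8 and 81.8 normalized counts per kb. The difference was 1.78 with a counting error of 0.06, a fold of 3.43, and 0 of its 270 similar regions differed by as much. Within 300 kb there were 11 further regions, and all 11 were higher in MommeD43 as deposited, by 0.19 to 0.67 with a median of 0.57, of which 1 falls below 0 under scaling to the total. They include 2 regions overlapping the Foxp4 body, chr17:47858151-47869750 at 0.57, which covers 4.55% of the gene and extends past its far end, and chr17:47874351-47879650 at 0.44. Both lay within the quartiles of their similar regions, so the start region exceeded its surroundings as well as regions alike in GC content.

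**Figure D3:**
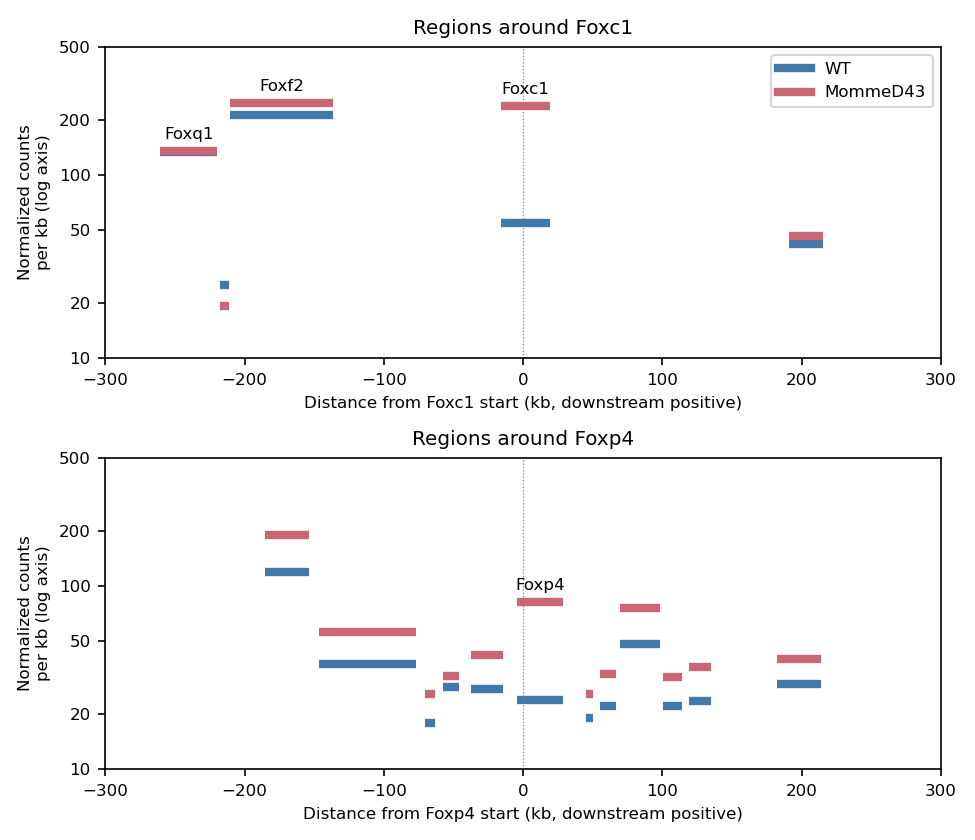
H3K27me3 level in normalized counts per kb (log axis) of the regions within 300 kb of the Foxc1 start (upper panel) and the Foxp4 start (lower panel), by distance from the start in kb, with each bar spanning 1 region in the pooled WT or MommeD43 column. Foxc1 reaches the level of Foxf2 in MommeD43, 239 against 249, and the Foxp4 start region moves from 23.8 to 81.8 among neighbours that differ by 0.19 to 0.67 on the log2 scale.

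Below a difference of 1, 7 further regions lay above the upper quartile of their similar regions. Foxi1, a regulator of inner ear and of acid-secreting cells in the kidney, had log2 values of 7.36 and 8.32, a difference of 0.96 with a counting error of 0.14. Of its 894 similar regions, 22 differed by as much. Foxh1, the DNA-binding partner of SMADs in Nodal signalling, had values of 10.55 and 11.36, a difference of 0.81. Its region also holds the starts of Cyhr1, Kifc2 and Ppp1r16a, so the value covers these genes too. Foxa3, a liver and gut factor whose region also holds the start of Sympk, had values of 10.68 and 11.37, a difference of 0.69. The regions of Foxh1 and Foxa3 were among the most GC-rich of the forkhead starts, at 53.3% and 52.4% GC. With the GC trend removed these differences were 0.39 at Foxh1 and 0.32 at Foxa3. Foxn4, a retinal and spinal interneuron factor that shares its region with Myo1h, differed by 0.55, just above its upper quartile of 0.549, and by 0.26 with the GC trend removed.

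The Foxc2, Foxf1 and Foxl1 genes lie side by side on chromosome 8 and shared a region of 271700 bp, chr8:121049001-121320700, which also holds the start of Mthfsd. Foxf1 acts in lung and visceral mesoderm, Foxc2 in lymphatic vessels and Foxl1 in gut mesenchyme. The region was at a log2 value of 15.31 in WT and 16.03 in MommeD43, or 149 and 246 normalized counts per kb. The difference was 0.72 with a counting error of 0.01, and 0.38 with the GC trend removed. Of its 40 similar regions 2 differed by as much. The Foxd2 and Foxe3 pair on chromosome 4, with starts 17140 bp apart, shared a region at 14.18 and 14.48, and its difference of 0.30 was close to the median of 0.32 of its similar regions. The 2 shared domains thus differed in how far they stood from similar regions, by 0.33 and −0.02, or by 0.21 and −0.13 where similar regions were matched on GC content and count per kb instead.

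The 11 regions above 200 normalized counts per kb in WT differed between genotypes by 0.13 to 0.37. The limit was set after the values were seen and uses the WT level, so a region that gained much from a low WT level could not be among them, and the range is a description only. With the same limit on the MommeD43 level there were 13 regions, Foxc1 and the Foxc2, Foxf1 and Foxl1 region included, and the differences ran from 0.13 to 2.13. Foxl2 had log2 values of 14.42 and 14.80, a difference of 0.37, and Foxd3 values of 14.27 and 14.45, a difference of 0.17. Foxa2 had values of 14.57 and 14.80 and Foxa1 values of 14.38 and 14.61, both a difference of 0.23. Foxd1 at 14.56 and 14.69 and Foxb2 at 13.92 and 14.05 differed by 0.13. Among these 11, only Foxl2, Foxe1 and the Foxd2 and Foxe3 region stayed higher in MommeD43 when the columns were scaled to the total. Foxe1 at 14.08 and 14.37, Foxb1 at 14.86 and 15.05, and Foxd4 at 13.17 and 13.33 completed the densely covered group, and each lay within the quartiles of its similar regions. The Foxl2 region also holds the start of Faim and the Foxa1 region that of Ttc6.

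**Figure D4:**
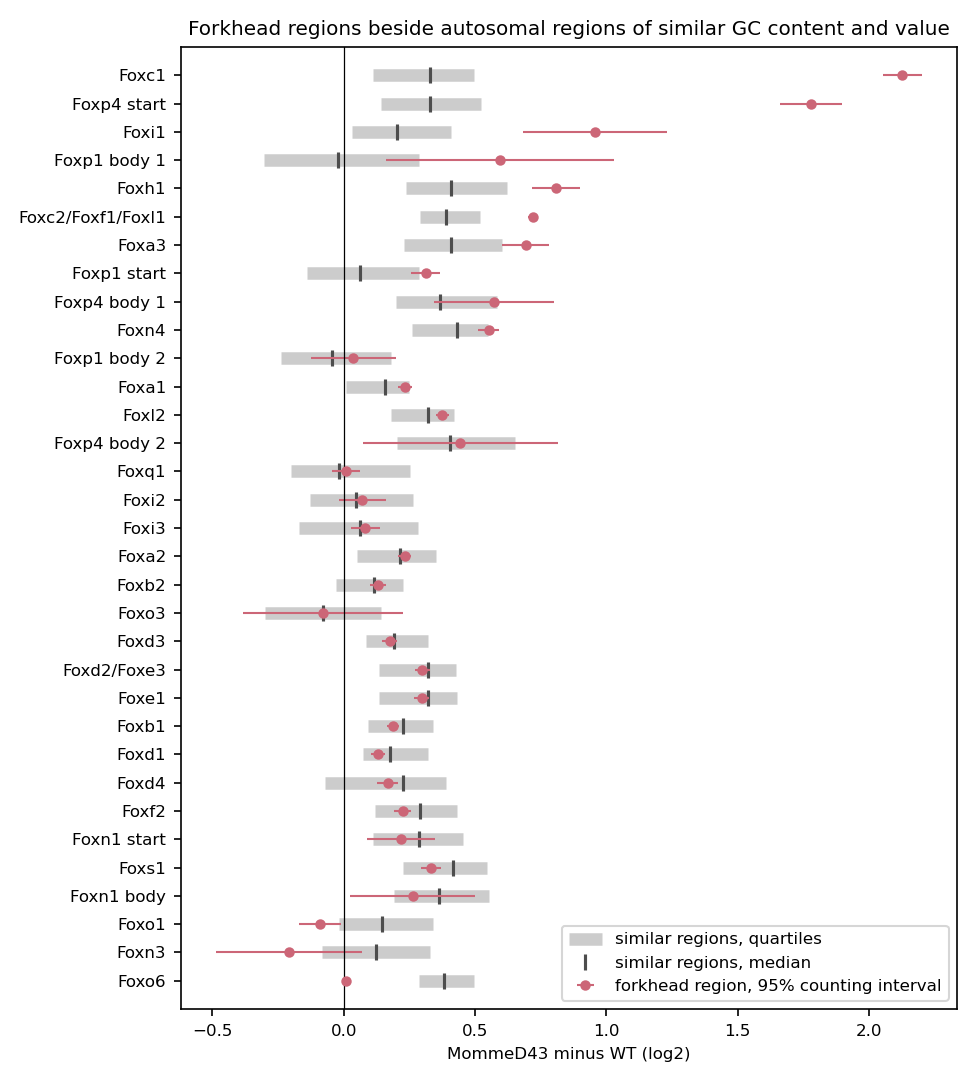
Difference between genotypes (MommeD43 minus WT, log2) of the 33 forkhead regions, points with 95% counting intervals that leave out variation between cell lines, beside the quartiles (grey bars) and median (ticks) of autosomal regions of similar GC content and value. The regions are ordered by excess, from Foxc1 at 1.80 down to Foxo6 at −0.37, and 21 of the 33 points fall inside the grey bars.

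The FOXO genes, whose products are restrained by insulin and AKT signalling, had regions with differences from −0.09 to 0.01. Foxo6, enriched in brain, lay in the longest forkhead region and the one of highest mean value, chr4:120111651-120407350, which also holds the starts of Edn2 and Scmh1. Its log2 values were 15.79 and 15.80, a difference of 0.01 with a counting error of 0.01. The median of its 47 similar regions was 0.38, and 45 of them had a higher difference. Foxo1 had a region over its start, reaching 2.85% of its length into the gene, at 11.34 in WT and 11.25 in MommeD43, a difference of −0.09, against a median of 0.14 in its similar regions. The region near Foxo3 lay 1846 bp from its start without covering it, at 7.44 and 7.36, a difference of −0.08 with a counting error of 0.16 and level with its similar regions. The excess over similar regions was −0.37 at Foxo6, −0.23 at Foxo1 and 0.00 at Foxo3, and at Foxn3, no FOXO gene, it was −0.33.

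The remaining regions over a forkhead start stayed near their similar regions, apart from that of Foxp1. Foxi3, which acts in teeth and hair, had values of 12.30 and 12.38, a difference of 0.08, and Foxi2 values of 10.90 and 10.97, a difference of 0.07. Foxs1, in a region with the starts of Dusp15, Mylk2 and Ttll9, had values of 13.20 and 13.54, a difference of 0.33 that shrank to 0.04 once the GC trend was taken out and to 0.09 under scaling to the total. Foxn1, the thymic epithelial factor lost in nude mice, was covered by a start region at 9.78 and 10.00 and a region in its body at 8.02 and 8.28. These differed by 0.22 and 0.26, within the quartiles of their similar regions.

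Foxp1, a FOXP factor of neurons, heart and lung, had 3 regions that differed among themselves. The start region, chr6:99471351-99524800, had values of 12.22 and 12.53, a difference of 0.31 with a counting error of 0.03 and above the upper quartile of 0.29 of its similar regions. A short intronic region near the far end of the gene, chr6:98992101-98997700, had values of 6.15 and 6.75, a difference of 0.60 with a counting error of 0.22, from 21.8 and 40.8 reads per library. The region next to it, chr6:99011451-99030700, differed by 0.04. Foxn3, a repressor linked to the cell cycle, had a region only in its body, 337582 bp from its start, at 7.78 and 7.57. Its difference of −0.21 had a 95% counting interval from −0.49 to 0.07, which holds 0 as deposited. With scaling to the total the difference was −0.45 and the interval lay below 0.

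No region lay within 5 kb of 7 of the 38 genes. These were Foxj1, the regulator of motile cilia, Foxj2, Foxj3, Foxk1, Foxk2, Foxm1, which drives genes of cell division, and Foxn2. The nearest region was 7764 bp away for Foxj2 and 112811 bp away for Foxn2, with the others in between. The limit of 5 kb took in the Foxo3 region at 1846 bp and left out that of Foxj2, which had values of 8.70 and 8.70, a difference of 0.00. The next outside, 9493 bp from Foxn1, had values of 9.45 and 9.73, a difference of 0.29. A gene without a region had no peak called nearby, and its level of H3K27me3 was not analysed here.

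Signalling genes that act upstream of forkhead factors or with them were read in the same way. Of 21 such genes, 15 had a region and 13 had their start in a region, with 22 regions in all. Their median difference was 0.26, and 16 of the 22 (72.7%) were higher in MommeD43 as deposited, against 57.6% of other autosomal regions, and 12 with scaling to the total, against 32.9%. None was higher by at least 1 and 1 was lower, against 2.27% and 2.94% of other autosomal regions. Nodal, the ligand upstream of Foxh1, came closest to a rise of 1, with values of 9.67 and 10.62, a difference of 0.95 with a counting error of 0.06. Shh, which induces Foxa2 in the floor plate, differed by 0.52. Igf1r, a receptor upstream of AKT and the FOXO factors, was the region lower by at least 1, at 13.53 in WT and 11.996 in MommeD43, a difference of −1.54 with a counting error of 0.03. The 4 regions of Gli2 lay between 0.22 and 0.62, the Gli3 start region at 0.37, and a second Gli3 region, without the start, at −0.42 with a counting error of 0.04.

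The label of the cells could be examined only through a silencing mark, which does not settle it. Of 7 NSC marker genes, 3 had their start in a region, namely Nes, Pax6 and Hes5, and Sox2, Vim, Fabp7 and Slc1a3 did not. Of 12 markers of neurons, oligodendrocytes, microglia and mesenchyme or mesoderm, 9 did, including Twist1, T and Col1a1. Both shares were above the 28.9% of other autosomal genes. Regions were widened around peaks and joined, so a start inside a region can lie beyond the peak itself. Expression was not analysed here, and the part of mixed cell populations in any of these values was not tested.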

How the data were processed

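H3K27me3 ChIP-seq values were analysed for 3 WT and 3 MommeD43 libraries as pooled by genotype; the 2 WCE libraries entered only through the authors' peak calling. The labels describe micrococcal nuclease digestion whereas the study's methods name a Covaris sonicator, so how chromatin was fragmented is uncertain. The authors trimmed reads with Trim Galore 0.4.4, aligned them with Bowtie2 2.3.4.1 to GRCm38.p6, and in SeqMonk called peaks on pooled replicates against WCE, widened them and joined close neighbours. The deposited values are on a log2 scale: the authors counted reads in each region, scaled the counts by total library size and took the mean of the logs over a genotype's libraries. They are not divided by length, and WCE is not subtracted. WCE libraries and single ChIP libraries were not analysed here.

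Differences are MommeD43 minus WT. Genes came from GENCODE mouse release 21 on GRCm38 and GC content from the GRCm38.p6 sequence. Normalized counts per kb are antilogs divided by region length. Read depth was recovered because a mean of 3 log2 counts is the log of a product of whole numbers: of products up to 30000, 1138 of 1139 in WT and 681 of 684 in MommeD43 were whole within 0.1, where 20% would be by chance. The recovered worth of a read was 3.27 normalized counts (WT) or 2.63 (MommeD43). Counting errors assume Poisson counts spread evenly over 3 libraries. No source names molecular identifiers, so reads may repeat molecules and intervals cover counting error only. Windows for similar regions were doubled where under 20 regions lay inside, which happened for 3 regions. No test across regions was possible with 1 column per genotype, and regions are not replicates. The procedures were tested on simulated data.

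Members, gene lists and comparisons were chosen with earlier results of these data known. The rule for naming asked for every listed gene, and for the promoters of the genes whose starts lie in the regions of highest mean value, largest rise and largest fall, read among regions holding a forkhead start, and of the gene without a region with the most CG. The first of these, Foxo6, had no promoter entry. Where RefSeq lists several promoters of a gene, the first was used. Alternatives were other scalings, removal of trends with GC content or abundance (running medians over 40 bins), a pseudocount of 16, other flanks and windows, and a minimum of 50 reads per library. Computations ran in Python 3.11.15 with scipy 1.17.1, pandas 2.3.3 and numpy 2.4.6, and plots were drawn with matplotlib 3.10.9.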

Additional observations from a re-analysis of the deposited data

How the results depend on the processing

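No paired analysis was possible because each genotype has 1 pooled column, which carries no replicate numbers; for the same reason leaving out each library in turn was not run. The 2 regions higher by at least 1 were Foxc1 and the Foxp4 start under all 5 alternatives of scaling, trend and pseudocount, and 0 regions were lower by at least 1. Of the 11674 other autosomal regions, between 136 (scaling to the total) and 250 (abundance trend removed) were higher by at least 1 under these alternatives, and between 80 (GC trend removed) and 667 (scaling to the total) lower.

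The median difference of 0.23 turned to −0.0088 when columns were scaled to the total of all regions and to −0.012 after removal of the abundance trend. It moved to 0.158 with scaling to the autosomal median and to 0.142 with the GC trend removed. The counts of 30 regions higher and 3 lower in MommeD43 became 16 and 17, 15 and 18, 26 and 7, and 26 and 7 in that order of alternatives, and 25 and 1 over the 26 regions holding a forkhead start. Other autosomal regions higher in MommeD43 were 32.9%, 50.02%, 49.9% and 49.8% of all in the same order of the first 4 alternatives. The median excess over similar regions, 0.021, was −0.0096 where similarity was set by GC content and count per kb, an alternative chosen after the data were seen. It ran from 0.0038 to 0.030 under the windows of other size. Leaving out Foxc1 and the Foxp4 start, also chosen after the data were seen, gave a median difference of 0.2325 and a median excess of 0.020.

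Of 165 values of single regions under alternatives, 37 changed sign. In 24 of them the counting interval had lain on 1 side of 0 as deposited. With scaling to the total these were Foxa2 at −0.0088, Foxd3 at −0.067, Foxi3 at −0.160, Foxb1 at −0.053, the Foxn1 start at −0.023, Foxa1 at −0.0092, Foxf2 at −0.018, Foxd1 at −0.111, Foxb2 at −0.112 and Foxd4 at −0.075. With the abundance trend removed they were Foxa2 at −0.076, Foxe1 at −0.012, Foxd3 at −0.134, the Foxd2 and Foxe3 region at −0.0094, Foxi3 at −0.171, Foxb1 at −0.120, Foxa1 at −0.076, Foxf2 at −0.084, Foxd1 at −0.179, Foxb2 at −0.177 and Foxd4 at −0.135. With the GC trend removed they were the Foxn1 body at −0.150, the Foxn1 start at −0.0995 and the second Foxp4 body region at −0.019. The other 13 were Foxo6, Foxq1, Foxi2 and the second Foxp1 body region, whose counting intervals held 0 as deposited, under both scalings and the abundance trend, and Foxo6 with the GC trend removed. They lay between −0.299 and −0.0041. The cause was not tested beyond the construction of each alternative. The pooled columns limit every value here: a library that stands apart within a genotype cannot be seen, and the counting error is a lower bound.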
